A study of Trichechus manatus latirostris with 11 samples.

Results

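S100 genes encode small calcium-binding proteins, and 10 of them were chosen by name (S100A8, S100A9, S100A12, S100A1, S100A4, S100A6, S100A10, S100A11, S100A13 and S100B). A gene was included when a record of the deposited table carried its symbol in the RefSeq annotation of TriManLat1.0, with record versions ignored. This gave 6 of the 10 genes, among 9641 gene symbols and 15298 records in all. S100A8, S100A9, S100A6, S100A10, S100A13 and S100B each had 1 record, while S100A1, S100A4, S100A11 and S100A12 had no record under their symbols and are not analysed here under those names.

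RNA was sequenced from buffy coats, the white cell layer of centrifuged blood, of 11 adult Florida manatees. The red tide group comprised 4 animals treated at Lowry Park Zoo for illness after exposure to a bloom of Karenia brevis, the dinoflagellate that releases brevetoxins. The 7 controls comprised 4 animals from Crystal River, 2 from the Indian River Lagoon and 1 recovering from pneumonia at Lowry Park Zoo. By the study's methods, some red tide animals were sampled on arrival and others after a week of treatment. The groups also differed in place and date of sampling, and freezing at once is described for the red tide buffy coats besides RNAlater, so that exposure, place, date and storage cannot be told apart here. Globin and ribosomal RNA were depleted from all samples.

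The values are the authors' group means of normalized counts, that is, read counts divided by a size factor for the depth of each library. The columns of the table name the groups by letter alone. In every record the overall mean equalled the first group mean weighted by 4 and the second weighted by 7, with a largest relative deviation of 3.3e-09, so the first averages 4 libraries and the second 7. Red tide samples number 4 and controls 7, so by these weights the first mean is that of the red tide group, and the title of the deposited table likewise puts red tide first and 7 others second. The study's text, however, reads the deposited fold, which is the second mean divided by the first, as red tide over control, which would give the means to the opposite groups. Because of this conflict the means are called the 4-library mean and the 7-library mean. The size factors were 0.372, 0.620, 1.03 and 1.56 in the 4 libraries (median 0.824) and 0.702 to 1.73 in the 7 libraries (median 1.17). They were thus on the whole smaller in the 4 libraries. Deepest and shallowest mean below the largest and smallest size factor, not the number of reads sequenced. Reads of single libraries could be worked out only where a mean was low. For S100A8, S100A9, S100A6 and S100A10 there is therefore a group mean and no spread between animals, and no test of these genes was made.

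Most S100 proteins work as dimers that change shape when calcium binds to their EF-hands. S100A8 and S100A9 pair to form calprotectin, a main cytosolic protein of neutrophils that monocytes also hold. Once released, calprotectin withholds zinc and manganese from microbes and acts on TLR4 and on the receptor RAGE as an alarm signal. Other members, such as S100A6 and S100A10, are made by many cell types.

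S100A9 (XM_004388639.1), the calprotectin partner that carries a long tail, averaged 835 normalized counts in the 4 libraries and 5429 in the 7. The 7-library mean was thus 6.50-fold higher, which as a log2 ratio (4-library mean divided by 7-library mean) is -2.70 (95% counting limits -2.78 to -2.62). These limits cover counting error only and not the variation between animals. Even if all S100A9 reads of the 4 libraries had come from 1 of them, that library would have reached 3338 normalized counts, so each of the 4 libraries lay below the 7-library mean. Whether single libraries of the groups overlapped is not known.

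S100A8 (XM_004388607.1), its partner in calprotectin, averaged 576 normalized counts in the 4 libraries and 2961 in the 7. The 7-library mean was 5.14-fold higher, with a log2 ratio of -2.36 (counting limits -2.46 to -2.26). No single library of the 4 can have exceeded 2305 normalized counts, again below the 7-library mean. The 4-library mean of S100A8 rested on at least 857 reads and that of S100A9 on at least 1241, so counting error was small for both. The log2 ratio of S100A8 was closer to 0 than that of S100A9 by 0.34 (counting limits 0.21 to 0.47), so the balance between the partner transcripts differed slightly between the group means, with no replicate check.

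Differences of this size were rare among strongly expressed genes. Of the 258 records with a 7-library mean at least as high as that of S100A8, 3 had a log2 ratio as low, S100A8 and S100A9 included. Of the 96 records with a 7-library mean at least as high as that of S100A9, S100A9 itself had the lowest ratio. Over the whole table, 1.25% of records had a ratio as low as that of S100A8 and 0.726% one as low as that of S100A9.

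**Figure D1:**
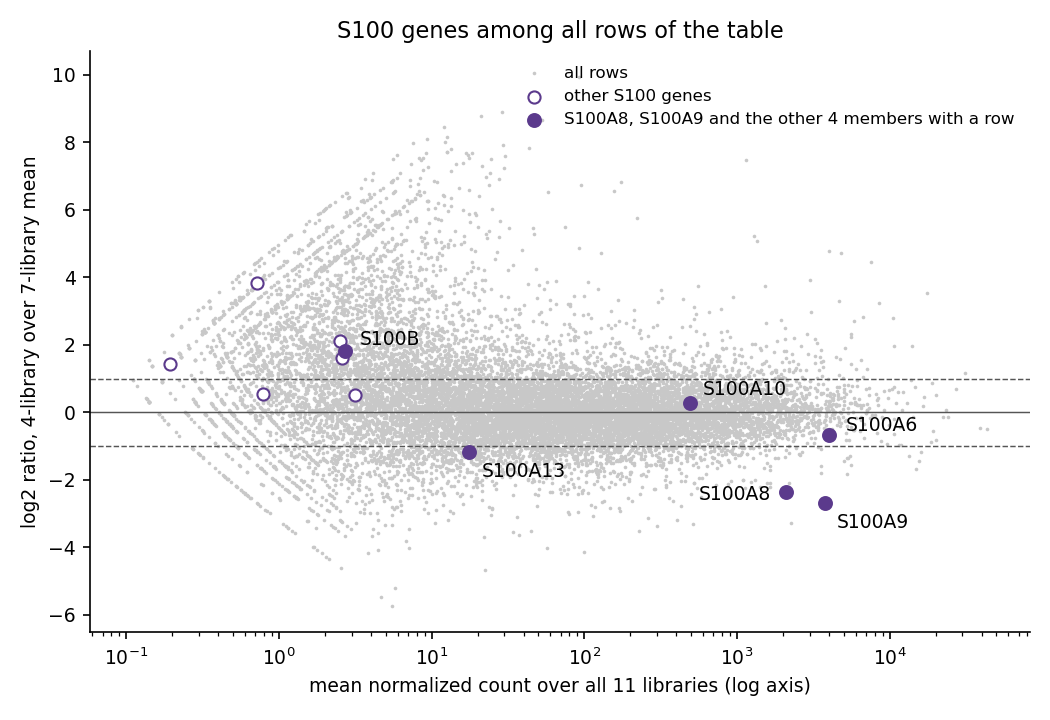
Log2 ratio, 4-library to 7-library mean (vertical axis), against the mean normalized count over all 11 libraries (horizontal log axis) for 15298 records (grey), the 6 S100 members with a record (filled) and 6 other S100 genes (open), with dashed lines at 2-fold. S100A8 and S100A9 lie at -2.36 and -2.70 in a range of expression where few records fall below the lower line, while S100A6 and S100A10 lie between the lines.

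S100A6 (calcyclin, XM_004388604.1), a widely expressed paralog linked to proliferating cells, had means of 2910 and 4645 normalized counts over the 4 and the 7 libraries. Its log2 ratio was -0.67 (counting limits -0.72 to -0.63), a 1.60-fold higher 7-library mean, which 17.5% of all records matched or passed in the same direction. S100A10 (XM_004389523.1), the calcium-insensitive partner of annexin A2 at the plasma membrane, had means of 552 and 460. It was 1.20-fold higher in the 4-library mean, a log2 ratio of 0.26 (counting limits 0.15 to 0.38), and 45.0% of records had a ratio as high. These broadly expressed paralogs thus stayed within 2-fold and lay on opposite sides, while both calprotectin genes were lower in the 4-library mean. The mean log2 ratio of S100A8 and S100A9 was -2.53 and the median of the other 4 members was -0.20, a difference of -2.33. This comparison is between genes of the same 2 group means and carries no replicate error.

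S100A13 (XM_004388633.1), which takes part in the export of FGF1 and interleukin 1 alpha by a route that bypasses the secretory pathway, was expressed weakly, with means of 9.73 and 22.1 normalized counts over the 4 and the 7 libraries. In order of falling size factor, the 4 libraries held 39, 6, 0 and 3 reads, or 25.0, 5.84, 0 and 8.07 normalized counts. The deepest library alone exceeded the 7-library mean, and the SD over the 4 (10.7) exceeded their mean. The log2 ratio was -1.18, and it moved to -2.25 without the deepest library and to -0.77 without the library that held no read. Its spread over the 7 libraries was not recovered.

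S100B (XM_004384786.1), known as a product of astrocytes and Schwann cells and found in some lymphocytes, was near the limit of detection, with 20 reads over the 4 libraries and 16 over the 7. In order of falling size factor, the 4 libraries gave 8.34, 2.92, 3.22 and 5.38 normalized counts (mean 4.97 ± 2.50, SD, n = 4). The 7 libraries gave a lowest value of 0, a median of 0 and a highest of 5.78 (mean 1.42 ± 2.26, SD, n = 7), with reads in 3 of the 7. All of the 4 libraries lay above the 7-library mean, but just 1 of the 4 exceeded every one of the 7, so the groups overlapped. The log2 ratio of 1.80 did not pass the test (exact two-sided permutation test over 330 splits, p = 0.0606, and 0.346 with Benjamini-Hochberg adjustment over the 4442 records whose reads were recovered in all 11 libraries). Reads of 10 and 5 in the 2 deepest of the 7 libraries supplied most of that group's signal, and without either of these the exact permutation p was 0.0286 or 0.0476, before adjustment. These records had a 4-library mean up to 80 but a 7-library mean up to 6, a selection that favours records higher in the 4 libraries, so shares in the 2 directions are not to be compared. Groups that do not overlap, with the 4 libraries higher, made up 2.79% of them, and 0.0675% had the 4 libraries lower. Over the 3055 records with both means up to 6, a set added after seeing the data, these shares were 0.491% and 0.0982%, and the adjusted exact permutation p of S100B was 0.874. The smallest exact permutation p that 4 against 7 libraries allow is 0.00606, so with adjustment over this many records a p could pass 0.05 only if a large number of records reached that floor, and an adjusted p above 0.05 does not show that a gene did not differ. Which animal each library came from is not known.

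Taking a fold of 2 in place of a test, 3 of the 6 members with a record (S100A8, S100A9 and S100A13) were higher in the 7-library mean, where 10.4% of all records were. S100A13 fell within 2-fold when the library of size factor 0.620 was left out (log2 ratio -0.77). One member, S100B, was at least 2-fold higher in the 4-library mean, where 23.9% of all records were. S100A6 and S100A10 stayed within 2-fold. At a fold of 1.5, 4 members were higher in the 7-library mean (20.2% of all records, 21.6% of those with an overall mean of at least 10) and 1 in the 4-library mean (33.8% and 22.8%). At a fold of 4, S100A8 and S100A9 were the 2 members higher in the 7-library mean (2.27% and 1.41%) and 0 were higher in the 4-library mean (12% and 3.81%). At the fold of 2 and among records with an overall mean of at least 10, which leaves out S100B, the shares were 9.59% and 12.3%. The median log2 ratio of the 6 members was -0.93, beside 0.14 over all records and -0.01 over the 10225 records with an overall mean of at least 10. Weak records leaned to the other side, with a median of 0.87 under a mean of 10, and S100B is one of them.

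**Figure D2:**
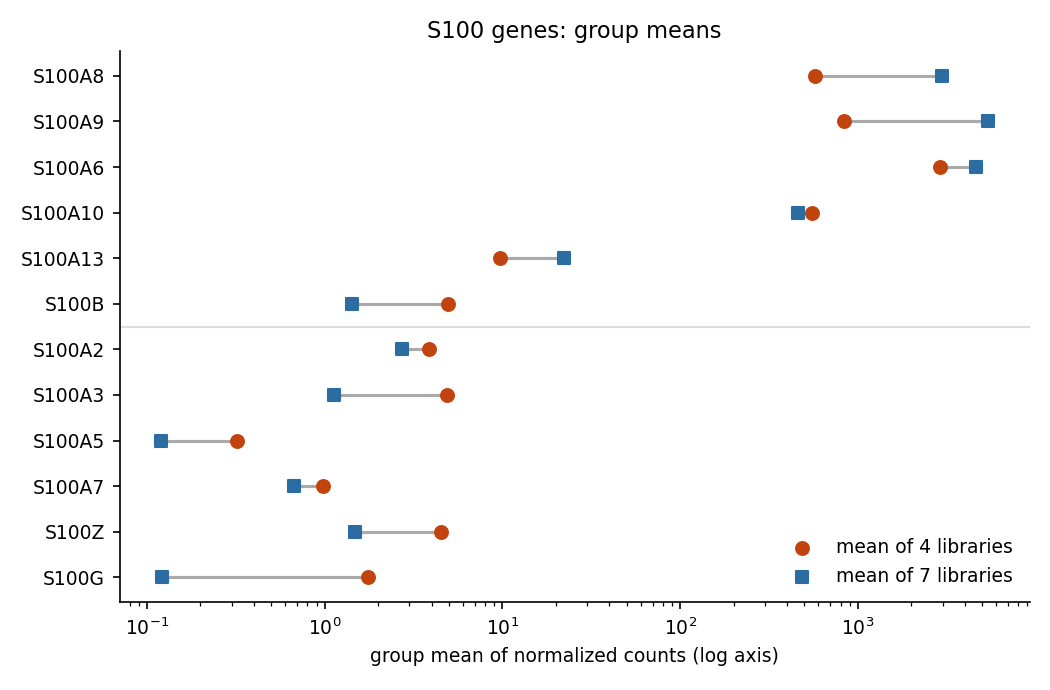
Group means of normalized counts on a log axis for the 6 S100 members with a record (above the line) and 6 other S100 genes (below it), as circles for the 4 libraries and squares for the 7. The square lies well to the right of the circle for S100A8 and S100A9, the marks of S100A6 and S100A10 lie close together, and the genes below the line have means under 5 in both groups; levels are not scaled to transcript length, so genes are not to be compared along the axis.

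Of 10 further S100 genes listed beside the members, 6 had a record: S100A2, S100A3, S100A5, S100A7, S100Z and S100G. They held between 1 and 22 reads in a group of libraries. All 6 had the higher value in the 4-library mean, the side to which weak records lean as a whole. S100A5 and S100G had no more than 3 reads in either group, so no fold is given for them. Of the other 4, S100A3 and S100Z were higher by at least 2-fold, as were 23.9% of all records and 12.3% of those with an overall mean of at least 10. The share was thus higher among weak records, to which these genes belong. S100A3, a protein of hair cuticle, gave 8.34, 5.84, 0 and 5.38 normalized counts in the 4 libraries, while the 7 libraries ranged from 0 to 3.41 with a median of 0.839. For this gene 3 of the 4 libraries exceeded all of the 7 and the other held no read (exact permutation test, p = 0.0485 and 0.326 after Benjamini-Hochberg adjustment over 4442 records). In that test 14.3% of records had an unadjusted p under 0.05 with the higher mean in the 4 libraries, and 3.9% of the 3055 records with both means up to 6, over which the adjusted exact permutation p of S100A3 was 0.874. S100A2 and S100A7, both best known from epithelium, gave an exact permutation p of 0.515 and 0.770, and S100Z gave 0.364. The 4 libraries of S100Z gave 2.57, 1.95, 0 and 13.5 normalized counts, the last from the shallowest library, and its log2 ratio of 1.61 became 0.03 when that library was left out. With adjustment, the exact permutation test called 0 of the 4442 records, the smallest adjusted p being 0.212. At an unadjusted p under 0.05 it called 635 higher and 26 lower (0.585%) in the 4 libraries, an imbalance to which the unequal limits on the means contribute, and 119 higher and 26 lower (0.851%) where both means were up to 6. All 4 reads of S100A7 in the 4 libraries lay in 1 library.

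**Figure D3:**
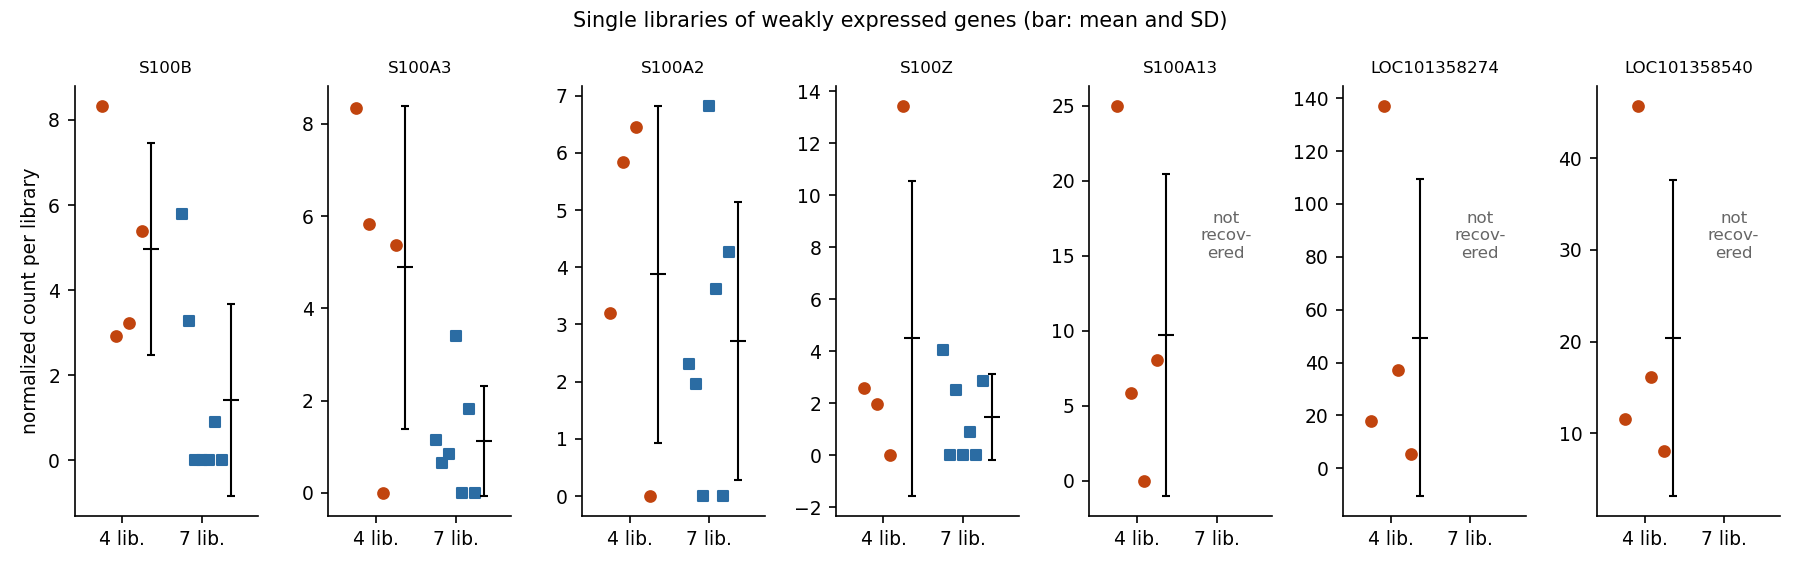
Normalized counts of single libraries for 5 weakly expressed S100 genes and for LOC101358274 and LOC101358540, each panel with its own vertical scale, circles for the 4 libraries, squares for the 7, and bars for the mean and SD. The 4 circles of S100B lie between 2.92 and 8.34 and overlap with the squares, S100A13 has 1 circle at 25.0 and the others at or below 8.07, and both LOC genes have their highest circle in the same library.

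Most S100 genes lie side by side in mammalian genomes. In the RefSeq table of TriManLat1.0, 21 genes were listed in order of rising start position from S100A1 to S100A9, and 11 of them had a record; the table names no scaffold for them, so no coordinates are given. Between S100A8 and S100A9 the table listed 4 genes, of which 2, LOC101358274 and LOC101358540, had a record. They carry no family name in that table. These neighbours were looked at after their values had been seen.

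LOC101358540 had means of 20.4 and 109 normalized counts over the 4 and the 7 libraries, a log2 ratio of -2.42 (counting limits -2.79 to -2.05). Its 4 libraries gave 11.5, 45.8, 16.1 and 8.07 normalized counts in order of falling size factor, all below the 7-library mean. LOC101358274 had means of 49.4 and 182, a log2 ratio of -1.88 (counting limits -2.12 to -1.65), and its 4 libraries gave 18.0, 137, 37.1 and 5.38, again all below the 7-library mean. The library of size factor 1.03 was the highest of the 4 for both genes, and without it the log2 ratios were -3.19 and -3.18. Both genes with a record between S100A8 and S100A9 were thus lower in the 4-library mean, as calprotectin was. Another gene without a family name, LOC101348309, lies between S100A3 and S100A5, and its means of 241 and 238 hardly differed (log2 ratio 0.01, counting limits -0.16 to 0.19). The RefSeq table has no gene under the symbols S100A4 and S100A12, and whether any of these 3 LOC genes is one of them is not known.

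**Figure D4:**
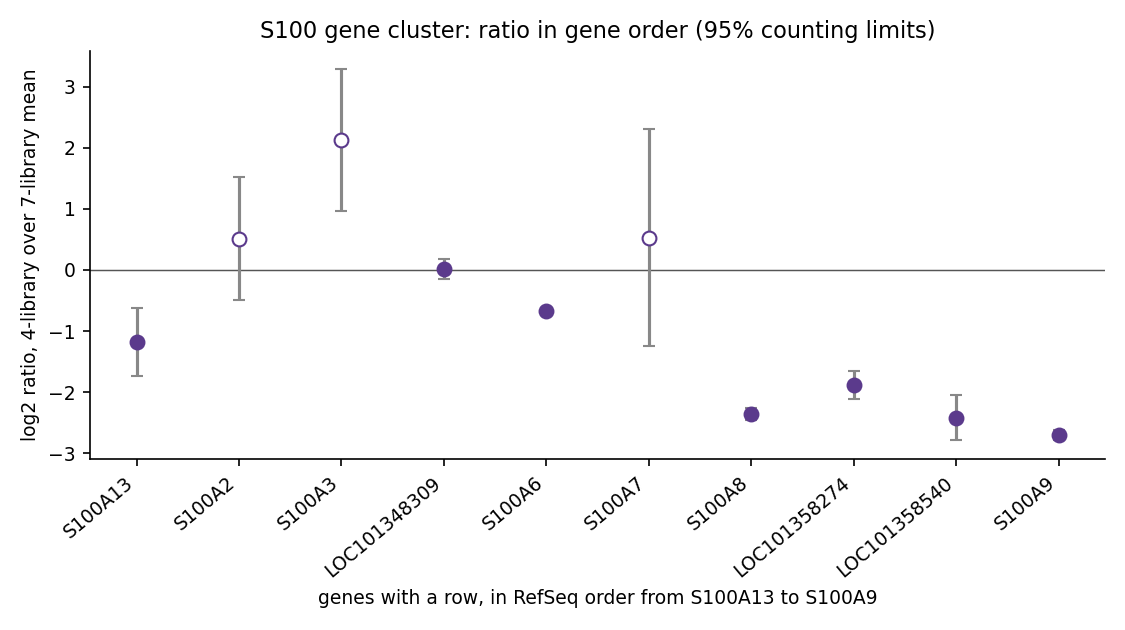
Log2 ratio, 4-library to 7-library mean, for the genes with a record from S100A13 to S100A9, in the order of the RefSeq table and not to scale, with 95% counting limits; filled points have an overall mean of at least 10, and S100A5 is left out for having 3 reads in all. The 4 points from S100A8 to S100A9 lie between -2.70 and -1.88, while LOC101348309 lies at 0.01 and S100A6 at -0.67.

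Calprotectin is carried by neutrophils and monocytes, so markers of the blood cell types were read beside it. In bulk RNA, fewer cells of a type cannot be told apart from less RNA per cell. Of 17 neutrophil markers 11 had a record, and 8 of these were at least 2-fold higher in the 7-library mean, as were 10.4% of all records. Their summed mean was 2259 normalized counts over the 4 libraries and 7061 over the 7, with a median log2 ratio of -1.60. MMP9, a gelatinase stored in neutrophil granules, had the largest difference of the list over all 4 libraries, with 76.5 and 762. Without the library of size factor 0.620, the chemokine receptor genes CXCR1 and CXCR2 passed it, with log2 ratios of -4.43 and -4.26 beside -3.59 for MMP9. CSF3R, the receptor for the cytokine that drives neutrophil production, had means of 425 and 1990. The direction was not shared by the whole list. FPR1, a receptor for formylated bacterial peptides, had means of 698 and 442. The primary granule gene AZU1 had 6 reads in the 4 libraries and 3 in the 7, a fold of 5.19. Its log2 ratio was 2.38, or 1.78 without the library of size factor 1.03. The 95% Poisson limits of the AZU1 fold, 1.78 and 25.2, cover the counting error of the 7 libraries alone. They take the reads of the 4 libraries as exact, so limits that cover both groups would be wider. MPO, the peroxidase of the primary granules, had means of 4.44 and 2.34. Every marker with a record was above 0, in this list and those that follow. The part that neutrophil markers have in the calprotectin difference was not tested.

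Monocyte markers did not move together. Of 10 such genes 7 had a record (8 records, since VCAN had 2), with 2 at least 2-fold higher in the 4-library mean (23.9% of all records) and 2 in the 7-library mean (10.4%), a summed mean of 2646 over the 4 libraries and 3451 over the 7, and a median log2 ratio of -0.15. LYZ, the lysozyme gene and the most abundant, had means of 1243 and 1839. CCR2, the chemokine receptor of classical monocytes, had 47.7 and 296. The part of monocytes in the calprotectin difference was not tested.

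Platelet markers lay on the other side. Of 9 listed 5 had a record, all with the higher 4-library mean, 4 of them by at least 2-fold where 23.9% of all records were, and their summed mean was 15250 over the 4 libraries against 4419 over the 7. ITGA2B, a subunit of the fibrinogen receptor and the marker with the highest 7-library mean, had means of 3996 and 1919. Its partner ITGB3 had 4725 and 1019, the platelet tubulin TUBB1 6392 and 1422, and GP1BA, a receptor for von Willebrand factor, 72.1 and 41.1. GP1BA was higher through 1 library, for leaving out that of size factor 0.620, with 111 of its 210 reads, turned its log2 ratio from 0.81 to -0.17. The same library moved GP9, its partner in that receptor, from 1.82 to 1.01. Reads of single libraries were not recovered for the other 3 markers. The part of platelet RNA in the S100 values was not tested.

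The medians of the T cell and B cell lists lay between those of the neutrophil and the monocyte list. Of 10 T cell genes 4 had a record, with summed means of 508 and 795 and a median log2 ratio of -0.73, 2 of them at least 2-fold higher in the 7-library mean (10.4% of all records). CD4, the one with the highest 7-library mean, had means of 145 and 297, CD2, an adhesion receptor, 123 and 285, and CD28, a costimulatory receptor, 219 and 185. Of 7 B cell genes 4 had a record, with summed means of 809 and 853 and a median of -0.52. CD22, an inhibitory receptor, had means of 39.0 and 81.6 (log2 ratio -1.07, or -1.70 without the shallowest library), MS4A1 (CD20) 370 and 415, and the kinase gene BLK 376 and 311. Of 8 NK cell genes 2 had a record, with summed means of 7.94 and 9.60. No median is given for this list, since EOMES is left without a ratio. PRF1, the pore-forming protein of killer cells, had 6.95 and 5.41, and its log2 ratio turned from 0.36 to -0.47 without the deepest of the 4 libraries. The transcription factor gene EOMES had 0.993 and 4.19, with 3 reads in the 4 libraries. At 3 reads or fewer in a group a fold is given here only with its Poisson limits, which were not worked out for EOMES. Of 8 erythroid genes 3 had a record, with summed means of 186 and 487, and ALAS2, the erythroid enzyme of heme synthesis, had means of 168 and 467 while KLF1, an erythroid transcription factor, had 4.23 and 1.59. Without the shallowest library, which held 4 of its 9 reads, the log2 ratio of KLF1 fell from 1.41 to 0.36. Epithelial and glial genes, which bear on S100A2, S100A7 and S100B, were close to the limit of detection. Of 6 epithelial genes 2 had a record. KRT5, a keratin of basal cells, had 6 reads in the 4 libraries, all in that of size factor 0.620, and 2 in the 7. Its fold of 14.6 rests on 1 library (Poisson limits, from the reads of the 7 libraries alone, 4.05 to 121). CDH1, the E-cadherin gene, had means of 11.6 and 5.62. Of 4 glial genes GFAP alone had a record, with 4 and 2 reads, a fold of 3.39 (Poisson limits, again from the 7 libraries alone, 0.937 to 28.0). Its log2 ratio moved from 1.76 to 0.36 without the library of size factor 0.620. The part of lymphocytes, red cells, epithelium and glia in the S100 values was not tested.

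**Figure D5:**
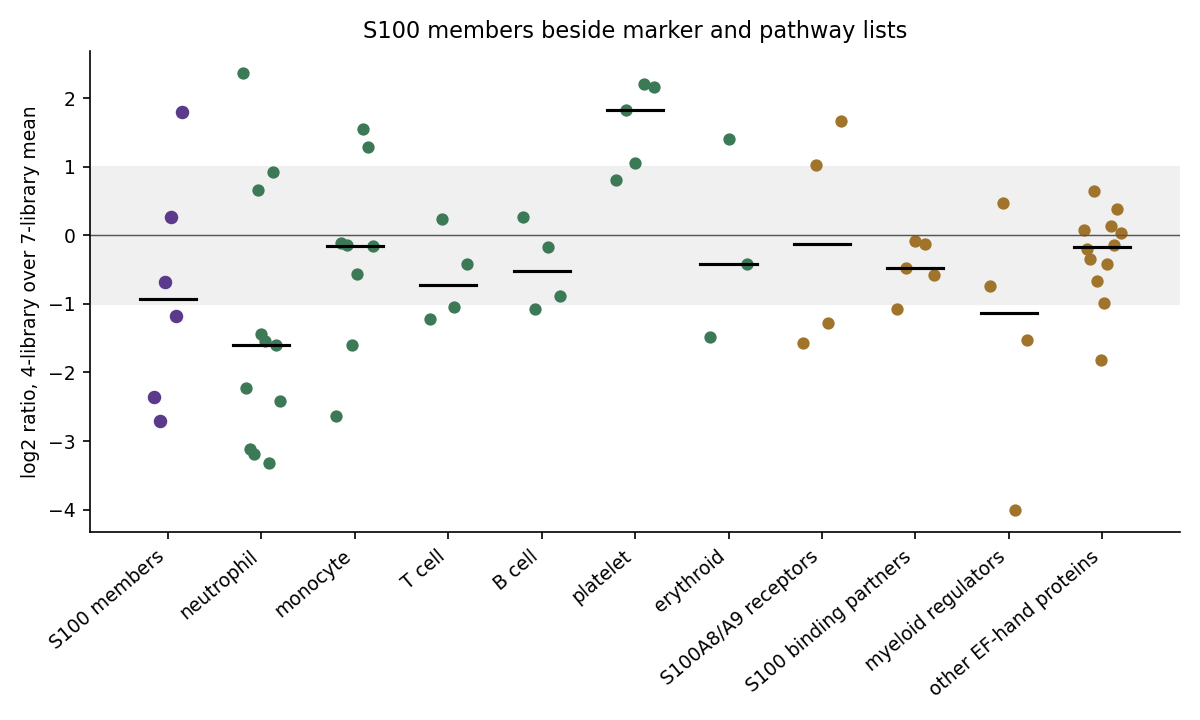
Log2 ratio, 4-library to 7-library mean, for each record of the S100 members, of 6 lists of blood cell markers (green) and of 4 lists of related genes (brown), with a line at each median and the band within 2-fold shaded. The neutrophil median lies at -1.60, the platelet median at 1.82 and the median of other EF-hand proteins at -0.17, while S100A8 and S100A9 are the lowest points of the S100 members.

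The receptors of calprotectin did not share one direction. Of 8 receptor and signalling genes 4 had a record. TLR4, the receptor through which calprotectin acts on myeloid cells, was 3.19-fold higher in the 4-library mean, with means of 1906 and 597. CD36, a scavenger receptor also found on platelets, had 45.4 and 22.2, but the library of size factor 0.620 supplied 70 of the 149 reads of the 4, and leaving it out brought the log2 ratio from 1.03 to 0.04. The adaptor MYD88 had means of 31.0 and 75.1, and BSG, the basigin gene, 8.68 and 25.8. Calprotectin and TLR4 thus lay on opposite sides.

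Genes of the proteins that S100 members bind differed less than calprotectin did. Of 9 such genes 5 had a record, all with the higher 7-library mean and 1 by at least 2-fold (10.4% of all records), with a median log2 ratio of -0.48. ANXA2, which forms a complex with S100A10, had means of 91.4 and 127. ANXA5, the most abundant, had 969 and 1028, and ANXA11, a partner of S100A6, had 278 and 588.

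Regulators of myeloid genes gave 4 records of 6. CEBPE, a factor of late granulocyte maturation, had means of 5.35 and 86.4, and its 4 libraries gave 3.21, 5.84, 9.67 and 2.69 normalized counts, all far below the 7-library mean. Its log2 ratio was -4.01, and without each of the 4 libraries in turn it lay between -4.46 and -3.79. SPI1 (PU.1), a factor of the whole myeloid lineage, had means of 41.3 and 119, and CEBPA 29.6 and 49.5. CEBPB, which is induced in activated myeloid cells, had 1106 and 798, the opposite direction.

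Of 17 other EF-hand proteins 12 had a record, and 11 of these stayed within 2-fold, as did 65.7% of all records and 78.1% of those with an overall mean of at least 10, with a median log2 ratio of -0.17. CALM2, a calmodulin gene and the most abundant of the list, had means of 8330 and 9564. GCA (grancalcin), an EF-hand protein of neutrophils and macrophages, had 1373 and 1827, a log2 ratio of -0.41. CHP1 had the largest difference, with 63.8 and 225, and CETN2 the largest in the other direction, with 146 and 93.7. None of the 12 had a ratio as low as that of S100A8 or S100A9.

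Among the genes whose pair of group means lay nearest to those of S100A8, by Euclidean distance on the log2 scale, were SULT1C4, a sulfotransferase gene (means 706 and 3022, distance 0.29) and TLR8, an endosomal receptor for RNA (536 and 2287, distance 0.39). Nearest to S100A9 were NLRC4, an inflammasome protein of myeloid cells (1363 and 4767, distance 0.73), SULT1C4 (distance 0.88) and TNFAIP6, a hyaluronan-binding protein (1558 and 4660, distance 0.93). Likeness was measured over the 2 group means and not over animals.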

How the data were processed

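Per the labels and the study's methods, the authors filtered reads by quality with Cutadapt, aligned to TriManLat1.0 with Bowtie2, discarded duplicate and multiply mapped reads, counted the rest by gene sequence and compared groups with DESeq in the DEB tool. No annotation release or counting tool is named. The authors' deposited signal is the mean, over all libraries and in each group, of counts divided by size factors. The other deposited columns hold the authors' fold changes and p-values and were not used.

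The worth of 1 read in each library was found from the lowest means and refined by least squares. A single combination of whole reads was found, to within 6e-10 below a mean of 10 and 6e-09 above, for 9632 of 9634 records with a 4-library mean up to 80 and 4460 of 4505 with a 7-library mean up to 6. The recovery was tested on simulated data. Symbols matched 10080 records (65.9%).

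With group means only, a fold of 2 stands in for a test. Counting limits are 95% limits from the reads, or the widest that the mean allows, and would be wider if both reads of a pair were counted. Poisson limits, where given, cover the counting error of the 7 libraries only. Libraries of weak genes were compared by exact permutation with Python 3.11.15 and numpy 2.4.6, two-sided, with the smaller tail doubled. The libraries are not linked to animals, so p-values measure the spread between these samples. Named genes were the members and, of each list, the gene with the highest 7-library mean and the largest ratio in each direction, with the 3 genes nearest to S100A8 and to S100A9; some genes under this rule are not reported here. The LOC genes, CSF3R, CXCR1, CXCR2, FPR1, MPO, TUBB1, GP9, CD36, MYD88, ANXA2, SPI1, CEBPA and GCA were named after their values had been seen. Members and lists were chosen with earlier results of these data known. Alternatives were a pseudocount of 1, centring, folds of 1.5 and 4, a minimum mean of 10, other sets of paralogs and leaving out libraries.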

Additional observations from a re-analysis of the deposited data

Results flagged for a closer look

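In 4 of 17 groups of single libraries, 1 library stood far above the others. All 4 cases rest on 1 to 4 reads in a group otherwise at 0, where a single library with reads always stands apart, so the rate of about 1 group in 20 that chance gives for measured values does not apply and nothing is read from their number. S100A5 had reads in 1 of the 4 libraries (1.28 normalized counts) and in 1 of the 7 (0.839). S100A7 had reads in 1 of the 4 libraries (3.89). S100G had its 1 read of the 7 libraries in a single library (0.853).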

How the results depend on the processing

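The log2 ratios of S100A8 and S100A9 were -2.50 and -2.84 when centred on the median of all records, an alternative added after seeing the data, and kept to within their counting limits with a pseudocount of 1 or when centred on records with an overall mean of at least 10. The difference between calprotectin and its paralogs was -1.86 when only paralogs with an overall mean of at least 10 were used, which drops S100B. The count of members at least 2-fold higher in the 4-library mean was 0 at a fold of 4 and 0 among records with an overall mean of at least 10, in place of 1; the count in the other direction lay between 2 and 4. With each library left out in turn, the log2 ratio lay between 1.43 and 2.84 for S100B (11 libraries, exact permutation p of 0.0286 to 0.167, under 0.05 in 2 of 11) and between -2.25 and -0.77 for S100A13 (4 libraries). On the scale of log2(normalized count + 1) the exact permutation p of S100B was 0.0545, a test and a set of leave-outs for S100B added after seeing the data. Adjusted over the 3055 records with both means up to 6, the exact permutation p of S100B was 0.874 in place of 0.346. Centring on all records gave -0.81 for S100A6 and 0.13 for S100A10. None of the alternatives run turned the direction of a member or of the calprotectin difference; the cause of the shifts with centring is the median of all records, 0.14. No paired analysis was possible because the group means carry no replicate numbers. For S100A8, S100A9, S100A6 and S100A10 the limit is not depth but the missing spread between animals.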
